A study of Mus musculus with 167 samples.

Results

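The immediate early response genes described here are Fos, Fosb, Jun, Junb, Egr1, Atf3, Nr4a1, Ier2, Ier3 and Btg2, chosen by name as 10 of the 39179 genes in the deposited tables. The choice was made with earlier results of these data known. The counts of members below, set beside shares of all genes, may therefore follow in part from that choice. They were measured by sequencing of polyA RNA from livers of C57BL/6 mice, either wild type (WT, littermates) or carrying an expanded or normal-length CAG repeat knocked into Htt, the Huntington's disease gene. The repeat gives the lines their names: Q20 (in the normal range), Q80, Q92, Q111, Q140 and Q175. Every knock-in animal was heterozygous, each line was housed with mice of its own line and the WT mice with Q20 mice, so that line and housing cannot be told apart. The 7 genotypes were sampled at 2, 6 and 10 months of age, and each of these 21 groups had 8 libraries from 4 females and 4 males. The exceptions were Q80 livers of 2 months, with 3 libraries labelled female and 5 labelled male, and of 10 months, with 4 and 3. Each library is called here by its group, its sex and its number in the labels, so that Q175 F3 is the third labelled female of the Q175 line. Whole liver is a mixture of cells, so a higher level in more cells and a higher level per cell cannot be told apart.

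Immediate early genes are transcribed within minutes of a stimulus from factors already present in the cell, without new protein synthesis, and their short-lived transcripts fall again soon after. Growth factor, stress, cAMP and calcium signals reach them through MAP kinases, SRF with its ETS partners, and CREB. In liver they are known for their burst after partial hepatectomy and injury. Fos, Fosb, Jun and Junb encode subunits of the dimeric transcription factor AP-1. Egr1 encodes a zinc finger factor that binds GC-rich sites, and Atf3 a stress-induced factor of the ATF/CREB family. Nr4a1 encodes an orphan nuclear receptor that in liver acts on gluconeogenic genes downstream of cAMP. Ier2 and Ier3 encode small early response proteins, of which the Ier3 protein acts on cell survival and on ERK signalling. Btg2 encodes an antiproliferative protein that recruits the deadenylase complex CCR4-NOT.

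The upstream sequences of Fos, Fosb, Nr4a1 and Btg2 are shown because these genes were among the steepest members in the burst of a single Q175 library and their windows hold some of the motifs searched. Holding motifs was thus part of the choice. Atf3, which was also among the steepest and had a reverse-strand CRE core (TGACG) 7 bases before the start, is not shown. Each is the 250 bases before the annotated start, printed 5' to 3' on the strand of the gene, from RefSeq with build GRCm38.p6. Fos (ENSMUSG00000021250) is on the forward strand at chr12:85473640-85473889, Fosb (ENSMUSG00000003545) on the reverse strand at chr7:19310046-19310295, Nr4a1 (ENSMUSG00000023034) on the forward strand at chr15:101266596-101266845 and Btg2 (ENSMUSG00000020423) on the reverse strand at chr1:134079156-134079405. Capitals mark CRE cores (TGACG on either strand, from the CREB and ATF binding site), EGR sites (GCGNGGGCG on either strand) and, in Fos, the TATA box (TATAAA, searched on the forward strand only).
Fos: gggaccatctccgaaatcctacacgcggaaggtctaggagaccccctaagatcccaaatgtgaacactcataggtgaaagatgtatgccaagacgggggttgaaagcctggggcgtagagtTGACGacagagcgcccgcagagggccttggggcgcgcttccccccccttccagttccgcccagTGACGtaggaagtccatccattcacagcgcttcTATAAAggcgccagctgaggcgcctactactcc
Fosb: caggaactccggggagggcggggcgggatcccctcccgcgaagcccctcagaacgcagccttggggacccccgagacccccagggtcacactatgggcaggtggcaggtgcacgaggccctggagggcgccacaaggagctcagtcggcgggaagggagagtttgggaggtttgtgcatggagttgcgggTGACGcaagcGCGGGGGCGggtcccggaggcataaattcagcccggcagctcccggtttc
Nr4a1: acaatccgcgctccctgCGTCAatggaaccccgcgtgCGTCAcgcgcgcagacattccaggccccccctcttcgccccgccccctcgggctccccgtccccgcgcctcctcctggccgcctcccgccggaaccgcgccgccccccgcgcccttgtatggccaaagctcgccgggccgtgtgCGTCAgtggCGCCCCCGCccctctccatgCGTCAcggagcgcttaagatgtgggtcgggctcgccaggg
Btg2: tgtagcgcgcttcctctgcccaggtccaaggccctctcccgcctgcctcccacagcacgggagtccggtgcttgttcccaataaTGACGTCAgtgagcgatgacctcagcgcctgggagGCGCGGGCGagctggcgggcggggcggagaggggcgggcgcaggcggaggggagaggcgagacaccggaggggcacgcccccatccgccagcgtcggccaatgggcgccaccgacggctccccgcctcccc

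In Fos the CRE cores began 129 and 66 bases before the start and the TATA box 33 bases before it. Fosb had a CRE core at 60 and an EGR site at 50 bases, and Nr4a1 had reverse-strand CRE cores at 233, 213, 69 and 40 bases with a reverse-strand EGR site at 60. The Btg2 window held the full palindrome TGACGTCA at 166 bases, which contains a CRE core on each strand, and an EGR site at 131. Promoter entries matched 8 of the 10 members, and Egr1 and Ier2 are named only. The CRE core was in 6 of these 8 windows, against 17.8% of 32851 promoters of the same length, the EGR site in 3 of 8, against 4.7%, the full palindrome in 1, against 1.55%, and the TATA box in 1, against 7.59%. The CArG box, the binding site of SRF, was in none of the 8 windows, against 1.47% of all promoters. Sites outside the 250 bases before the start, and any in Egr1 or Ier2, were not searched. The count therefore does not show that the members lack SRF sites. Such matches describe the letters in these windows.

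The level of each member was set on the scale of CPM (counts scaled to the size of their library, with TMM normalization over all libraries together). Library totals ran from 32025244 to 57151736 expected counts with a median of 38663519. Compared per length, in the deposited FPKM, the median levels were highest for Ier2 (8.15 FPKM) and Junb (7.60), followed by Egr1 (3.81), Btg2 (3.13) and Jun (3.11). The low members were Ier3 (0.890 FPKM), Nr4a1 (0.763), Fos (0.680), Atf3 (0.662) and Fosb (0.0469). Of the members with no sequence shown, Jun lies at chr4:95049034-95052222, Junb at chr8:84974484-84978718, Ier2 at chr8:84661331-84662852, Atf3 at chr1:191170296-191218039 and Ier3 at chr17:35821684-35822923 (GRCm38, GENCODE M21). All 10 members passed the low-count filter in every comparison, although Fosb was at 0 in 4 libraries. Jun shares 232 of its 3189 exon bases with the antisense gene Junos and Junb 173 of 2301 with Prdx2 on the other strand, and the labels do not state that counting used strand, so reads there cannot be assigned to 1 gene.

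The members spread very unequally between libraries. Egr1 had the largest spread on the log2 scale, with 1.37, 11.8 and 284 CPM as the lowest, median and highest of all libraries and an SD of 1.299. Nr4a1 had 0.611, 1.88 and 114 CPM (SD 1.15) and Fos 0.233, 1.38 and 19.04 CPM (SD 1.02). Ier2 was the narrowest, with 6.97, 12.2 and 41.9 CPM (SD 0.43). In 7 members, Fos, Fosb, Jun, Atf3, Nr4a1, Ier3 and Btg2, the highest value of the series was in the same library, Q175 F3 at 10 months. In Fosb it stood at 14.6 CPM, against 1.77 CPM in the next highest library, and in Atf3 at 77.7 CPM, against 6.23 CPM. The other 3 members peaked elsewhere: Junb at 73.4 CPM in Q20 M4 at 6 months, Egr1 at 284 CPM in Q92 F1 at 10 months, and Ier2 at 41.9 CPM in Q140 M1 at 6 months.

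**Figure D1:**
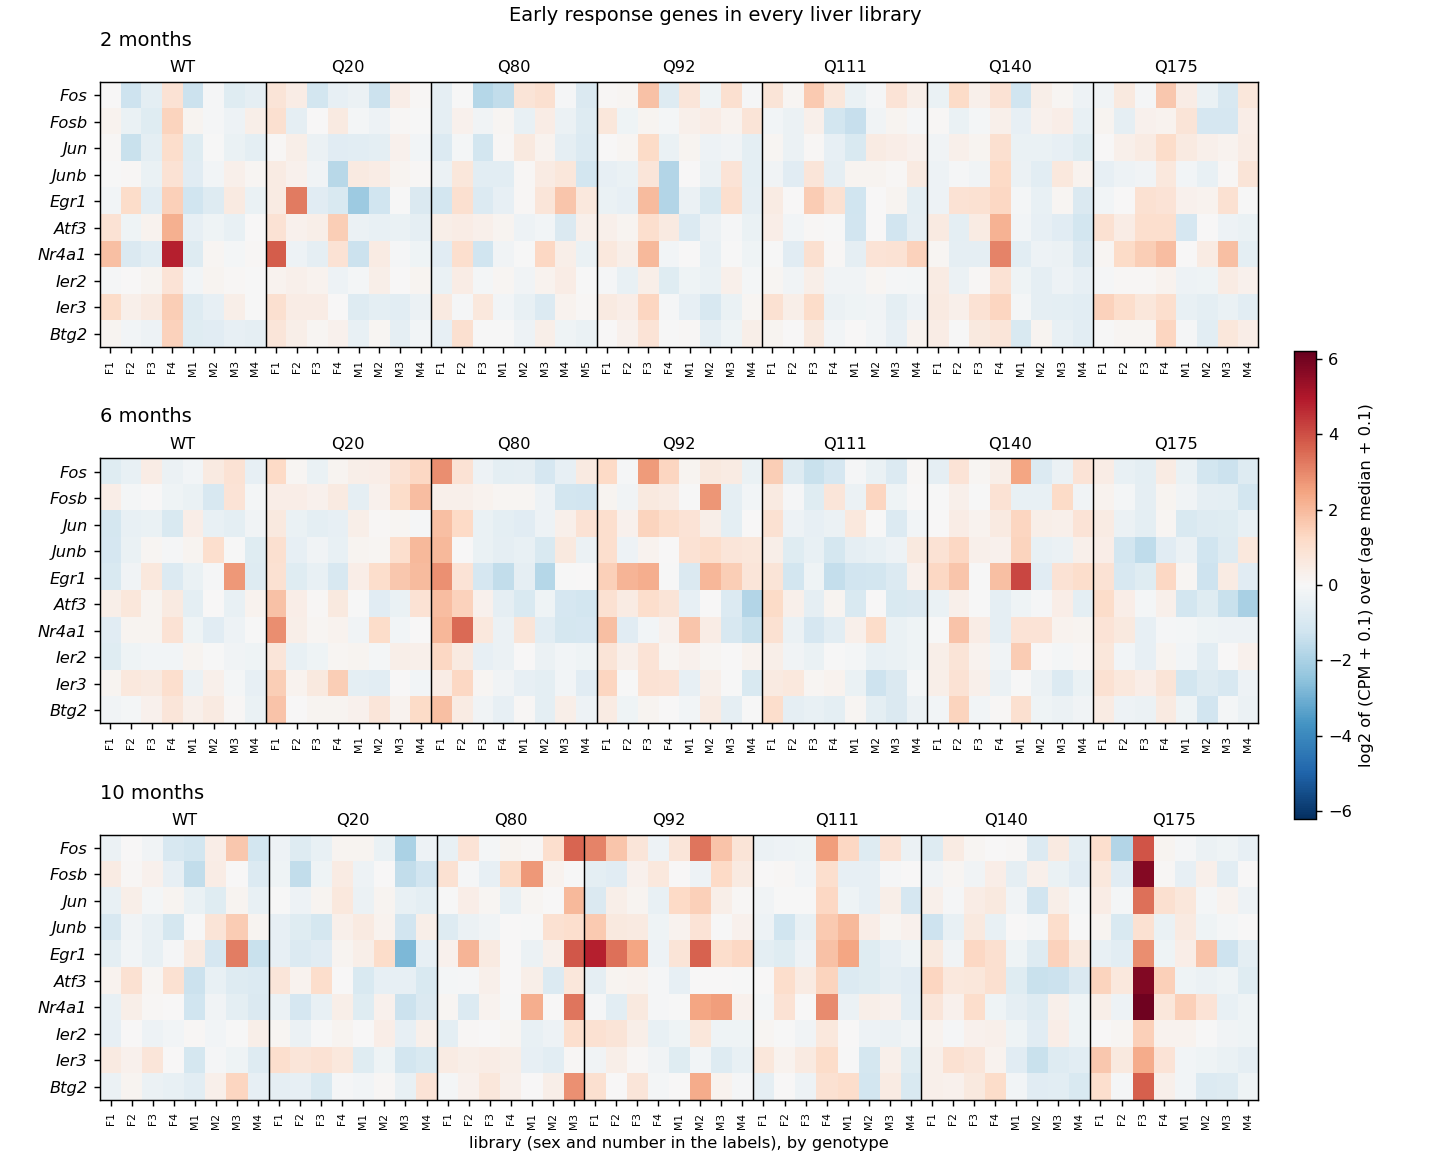
Level of each member (down the page) in each library (across, by age, genotype, sex and number), as the log2 of (CPM + 0.1) over (the median of that age + 0.1), with red for higher. The 10-month panel holds the darkest column, Q175 F3, beside a shorter one in Q80 M3, while most columns at 2 months are pale.

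Bursts were counted by a fixed rule, by which a member bursts in a library at 4 or more times its median for that age (with 0.1 CPM added to both) and a library carries a burst when at least 5 of the 10 members do. By this rule 2 libraries carried a burst, both at 10 months: Q175 F3 with 8 members and Q80 M3 with 5. The share of libraries in which no member reached 4 times its median was 51 of 56 at 2 months, then 47 of 56 at 6 months, and finally 43 of 55 at 10 months. Just outside the rule were Q92 M2 at 10 months, with 4 members (Fos 12.9, Egr1 127, Nr4a1 9.55 and Btg2 41.0 CPM), and Q80 F1 at 6 months, with 3 (Fos 12.4, Egr1 102 and Nr4a1 9.50 CPM). A further 8 libraries had 2 members each, among them WT F4 at 2 months, where Nr4a1 reached 53.1 and Atf3 6.23 CPM. The rule's thresholds set these counts, and the share of all genes past the same ratios in each library was not computed. No group of libraries made by the rule was tested against another, although some fits below left out the 2 libraries with a burst.

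The burst in Q175 F3 held 8 of the 10 members. Nr4a1 stood at 114 CPM, 64.7 times its 10-month median, Atf3 at 77.7 CPM (53.8 times) and Fosb at 14.6 CPM (51.2 times). The other AP-1 genes Fos (19.04 CPM, 14.8 times) and Jun (94.1 CPM, 10.7 times), Btg2 (109 CPM, 13.1 times), Egr1 (75.3 CPM, 7.39 times) and Ier3 (6.19 CPM, 4.87 times) also passed 4 times. Only Ier2 (31.4 CPM, 2.76 times) and Junb (25.4 CPM, 1.95 times) did not. Of 38 other early response genes, 28 were at 2 or more times their 10-month median in this library and 10 at 4 or more, with a median ratio of 2.47. They included the other NR4A receptors, Nr4a3 at 6.35 CPM (26.7 times) and Nr4a2 at 3.61 CPM, as well as Egr2 at 1.32 CPM and Klf4 at 7.78 CPM. Of 20 upstream factors and kinases, 2 were at 2 or more times their median in this library and 0 at 4 or more. The share of all genes at these ratios was not computed, so nothing particular to these lists is drawn from the counts.

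Skeletal muscle markers stood apart in the same library. The 6 muscle markers summed to 802 CPM in Q175 F3, none was at 0, and Acta1, which encodes skeletal muscle actin, was at 272 CPM. The next highest of the 55 libraries at 10 months, Q175 F4, had 23.7 CPM and the median was 0.621 CPM. Over the groups the sum ran from 0.476 to 802 CPM in Q175, with Acta1 at 0 in 6 of 8 libraries, against 0.327 to 0.984 CPM in Q20, with Acta1 at 0 in 4 of 8. The liver's own markers were within the range of the age: hepatocyte markers summed to 90550 CPM (35th highest of 55) and Kupffer cell markers to 249 CPM (36th). Neutrophil markers were 10th at 9.78 CPM, cytosolic heat shock genes 35th at 1202 CPM and acute phase genes 42nd at 5005 CPM. The part of muscle RNA in the levels of the members was not tested.

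The burst in Q80 M3 held 5 members, all of them also past 4 times the median in Q175 F3. Egr1 was at 149 CPM (14.6 times the 10-month median), Fos at 15.9 CPM (12.4 times), Nr4a1 at 17.5 CPM (9.96 times), Btg2 at 59.2 CPM (7.12 times) and Jun at 35.1 CPM (4.01 times). Fosb (0.180 CPM, 0.973 times) and Ier3 (1.26 CPM, 1.05 times) were near their medians. Atf3 was at 2.22 CPM, 1.60 times the median over both sexes, and this was the highest of the 27 males at 10 months, where males of the other genotypes reached 1.39 CPM. Of the 38 other early response genes, 12 were at 2 or more times their median and 2 at 4 or more, Gadd45g at 24.8 CPM (12.4 times) and Nr4a3 at 0.929 CPM (4.26 times). Of the 20 upstream factors and kinases 1 was at 2 or more times, and the share of all genes was not computed here either. In this library the 6 muscle markers summed to 0.779 CPM with 3 of them, Acta1 included, at 0. Neutrophil markers were the highest of the 55 libraries at 28.8 CPM, against a median of 4.95 CPM, and the acute phase gene Saa1 was at 592 CPM, against a median of 21.02 CPM. Of the 8 acute phase genes, 4 were at 2 or more times their median in Q80 M3, with a median ratio of 2.43. In Q92 M2, just outside the rule, Saa1 was at 314 CPM and the neutrophil sum was the third highest, at 14.9 CPM. There 3 of the 8 acute phase genes were at 2 or more times their median, with a median ratio of 1.52. Acute phase genes also reached this ratio where fewer members did. In Q80 M1 at 10 months 4 of the 8 did, beside 2 of the 10 members. In Q92 F1 at 10 months 6 of the 8 did, and in Q92 M2 at 6 months 7 of the 8, beside 3 of the 10 members in each. In Q175 F3 1 of the 8 did. The part of acute phase genes or neutrophil markers in the members' levels was not tested.

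**Figure D2:**
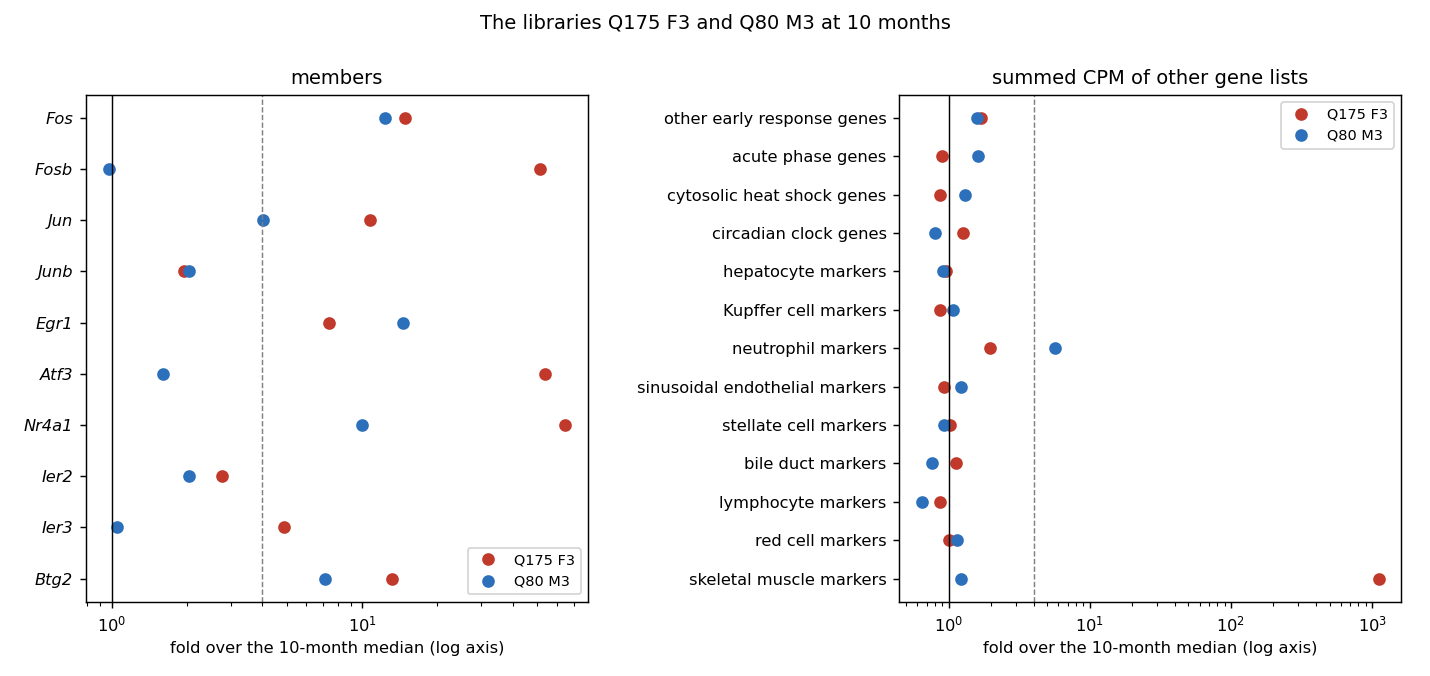
Ratio to the 10-month median, on log axes, in the 2 libraries with a burst (Q175 F3 in red, Q80 M3 in blue), for each member (left) and for the summed CPM of other gene lists (right), with a solid line at 1 and a dashed line at 4 times the median. Fosb, Atf3 and Nr4a1 exceed 50 times in Q175 F3, where skeletal muscle markers stand apart on the right, while in Q80 M3 Egr1 and Fos lead and neutrophil markers stand apart.

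Group medians differed far less than single libraries. The highest group median of Egr1 was 40.7 CPM in Q92 at 6 months (7.49 to 68.1 CPM), followed by Q92 at 10 months at 39.9 CPM, and the lowest was 6.31 CPM in Q20 at 2 months (2.27 to 104 CPM), a ratio of 6.45. Q92 at 6 months also held the highest group median of Jun (16.1 CPM), Junb (30.3 CPM), Atf3 (1.65 CPM) and Ier2 (16.2 CPM). Fos was highest in Q92 at 10 months (3.13 CPM) and lowest in Q20 at 10 months (0.899 CPM), Nr4a1 highest in Q175 at 2 months (3.35 CPM) and lowest in Q20 at 10 months (1.08 CPM). Ier3 was highest in Q80 at 10 months (1.54 CPM) and lowest in Q111 at 2 months (0.725 CPM). Fosb (0.272 CPM) and Btg2 (10.6 CPM) had their highest median in Q20 at 6 months, and their lowest in Q175 at 6 months (0.114 CPM) and in WT at 10 months (6.29 CPM). With the 21 groups of a member in order of their medians, 0 of the 20 neighbouring pairs were without overlap, for each of the 10 members. Neighbours in such an order have close medians, so this count was likely for any gene. The share over all genes was not computed, and nothing particular to the members is drawn from it.

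At 10 months 3 members were higher in Q175 than in Q20. Fosb was at 0.0739, 0.195 and 14.6 CPM (lowest, median and highest of 8) in Q175 livers, against 0, 0.136 and 0.314 CPM in Q20 livers. Atf3 was at 0.751, 1.62 and 77.7 CPM in Q175, against 0.654, 1.14 and 2.93 CPM in Q20, and Nr4a1 at 1.20, 2.45 and 114 CPM in Q175, against 0.611, 1.08 and 2.20 CPM in Q20. The groups overlapped in all 3 genes, and in each of them the highest Q175 value was Q175 F3. The log2 fold change was 3.86 ± 0.82 (SE) for Fosb (adjusted p = 0.0061), 2.60 ± 0.54 for Atf3 (adjusted p = 0.00572) and 3.58 ± 0.80 for Nr4a1 (adjusted p = 0.0102) by edgeR's quasi-likelihood test. Every adjusted p here comes from this test and is a Benjamini-Hochberg value over the whole gene table, unless another tool is named. Of all genes tested, 0.924% were called higher. The other 7 members did not pass, among them Jun at 1.28 ± 0.40 (adjusted p = 0.0995), Btg2 at 1.46 (0.174), Fos at 1.91 (0.177) and Ier3 at 0.59 (0.187). All 10 log2 fold changes were positive, with a median of 1.37, against a median of -0.004 over all genes.

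Without Q175 F3 no member was called in this comparison, against 0.326% of all genes, and 0 of the 10 had an unadjusted p under 0.05. Fosb was then at 0.50 (adjusted p = 0.822), Atf3 at 0.50 (0.518) and Nr4a1 at 0.90 (0.596). Each of these 3 genes was called in the other 15 of 16 fits that left out a single library of Q175 or Q20, and Jun was called as well in the fit without Q175 F2 (adjusted p = 0.0463). With all libraries, DESeq2 called Nr4a1 and Atf3 and gave Fosb no adjusted p. Limma on log2 FPKM called 0 members, as did the females alone and the males alone.

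**Figure D3:**
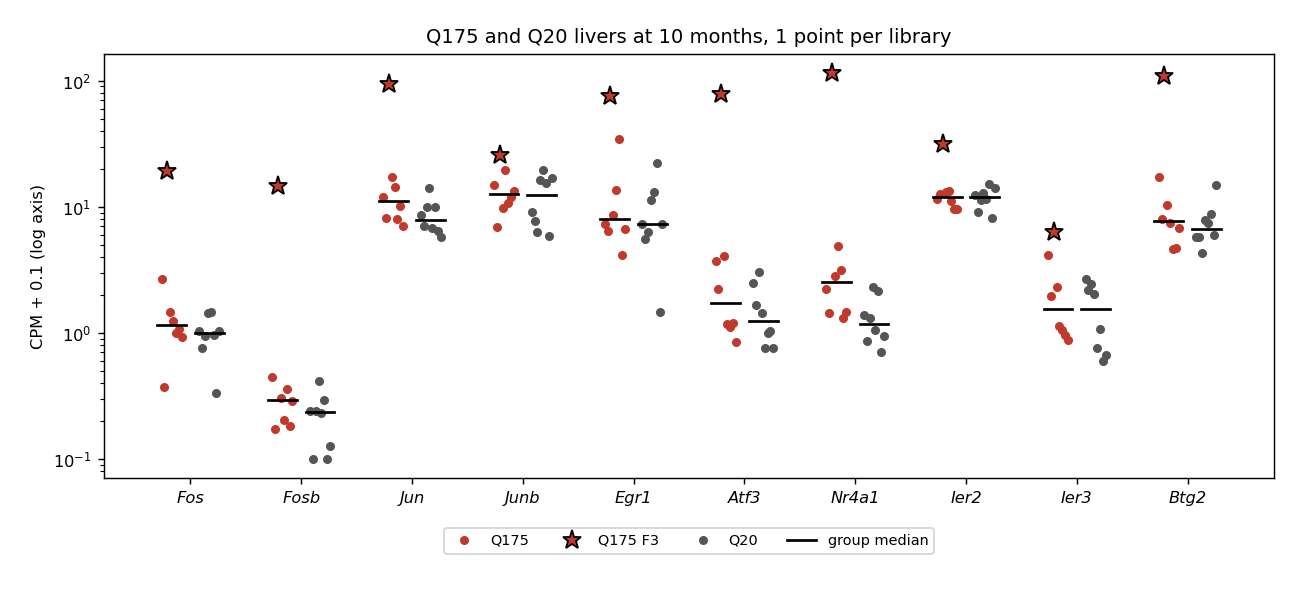
CPM + 0.1 (log axis) of each member in the 8 Q175 libraries (red, on the left of each pair) and the 8 Q20 libraries (grey, on the right) at 10 months, with a bar at each group's median and a star for Q175 F3. The star is the highest of the 16 points for each of the 10 members, and the other 7 Q175 points lie among or near the Q20 points.

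Of the 37 other early response genes tested here, 2 were higher in Q175, with a median log2 fold change of 0.41. Nr4a3 was at 3.14 ± 0.75 (adjusted p = 0.0165), and at 0.05 without Q175 F3. Klf2, a shear-responsive factor of endothelial cells, was at 0.68 ± 0.17 (adjusted p = 0.031), and at 0.57 ± 0.17 (adjusted p = 0.133) without it. Of the 20 upstream factors and kinases none was called and 2 had an unadjusted p under 0.05, Map2k7 at -0.13 and Mapk14 at -0.15.

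Across the 6 knock-in lines at 10 months, the slope on repeat length was positive for 2 members. Per 100 repeats Fosb rose by 2.41 ± 0.55 (adjusted p = 0.0163) and Atf3 by 1.69 ± 0.37 (adjusted p = 0.00967), against 0.505% of all genes called with a positive slope. Nr4a1 was at 1.87 ± 0.53 (adjusted p = 0.0979). Without Q175 F3 no member was called, against 0.154% of all genes, and the slopes were -0.16 for Fosb, 0.27 for Atf3 and 0.14 for Nr4a1. Of the 36 other early response genes tested 0 were called, with 10 at an unadjusted p under 0.05, against 10.6% of all genes, Nr4a3 leading at 1.84 ± 0.51 (adjusted p = 0.0848).

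In Q92 livers at 10 months Egr1 and Fos were higher than in Q20 livers. Egr1 was at 284, 107, 55.0 and 8.04 CPM in the Q92 females F1 to F4 and at 17.9, 127, 21.7 and 24.7 CPM in the males M1 to M4, against 1.37, 7.17 and 22.3 CPM (lowest, median and highest of 8) in Q20. Fos was at 0.945, 3.13 and 12.9 CPM in Q92, against 0.233, 0.899 and 1.38 CPM in Q20. Both ranges overlapped, with 5 of 8 Q92 libraries above every Q20 library in Egr1. The log2 fold change was 3.21 ± 0.76 for Egr1 (adjusted p = 0.0111) and 2.43 ± 0.69 for Fos (adjusted p = 0.0337), against 2.02% of all genes called higher. Nr4a1 at 1.73 ± 0.82 (adjusted p = 0.229) and Junb at 0.79 ± 0.36 (0.208) did not pass. Of the other early response genes 1 of 37 was called, Zfp36, whose protein destabilizes AU-rich transcripts, at 1.05 ± 0.23 (adjusted p = 0.00715). Mapk14, which encodes the kinase p38 alpha, was lower at -0.24 ± 0.07 (adjusted p = 0.0256), the only call among 20 upstream factors and kinases. The 8 acute phase genes summed to 5222, 5632 and 12010 CPM in Q92, highest in F1, against 4563, 5334 and 11130 CPM in Q20, and the 6 neutrophil markers to 3.39, 5.26 and 14.9 CPM in Q92, highest in M2, against 2.04, 4.06 and 11.5 CPM in Q20. The 8 Kupffer cell markers summed to 179, 235 and 537 CPM in Q92, against 142, 265 and 381 CPM in Q20, and the 6 lymphocyte markers to 6.27, 11.3 and 22.4 CPM in Q92, against 7.35, 10.5 and 17.96 CPM in Q20. Q92 F1, with the highest Egr1, was also the highest in Q92 for both, 1st and 2nd of the 55 libraries at 10 months. The part of these markers in Egr1 and Fos was not tested.

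Library names at 10 months come in a form with and a form without an index, and Egr1 was high in the libraries without one. In the 5 libraries with no index Egr1 was at 284 CPM (Q92 F1), 92.7 (WT M3), 56.2 (Q111 M1), 55.0 (Q92 F3) and 43.4 (Q80 F2). In the 50 libraries with an index it ran from 1.37 to 149 CPM with a median of 8.81, and 4 of them were above 43.4 CPM. Medians without and with an index were 39.3 and 12.96 CPM for Junb, 3.04 and 1.03 CPM for Fos and 16.5 and 7.77 CPM for Btg2, while for Fosb (0.173 and 0.188 CPM), Atf3 (0.893 and 1.36 CPM) and Nr4a1 (1.29 and 1.72 CPM) the libraries without an index were not higher. What the name form stands for is not given in the labels, and its part in the result was not tested beyond leaving these libraries out. Without them, Egr1 in Q92 against Q20 was at 2.48 ± 0.66 (adjusted p = 0.144) and Fos at 2.33 ± 0.74 (adjusted p = 0.193), so 0 members were called, against 0.025% of all genes called higher. Without Q92 F1 alone Egr1 was at 2.51 (adjusted p = 0.0593) and Fos at 2.14 (adjusted p = 0.107). Fos also missed the threshold without Q92 F3 (2.55, adjusted p = 0.0526), Q92 M2 (2.02, 0.0719), Q20 F1 (2.43, 0.0543), Q20 F2 (2.37, 0.052), Q20 F3 (2.41, 0.0706) or Q20 M3 (2.30, 0.0677). At 2 months the median of Egr1 was 13.7 CPM in the 8 libraries without an index and 10.9 CPM in the 48 with one.

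The other lines against Q20 at 10 months gave no call among the members. In Q80 Egr1 was at 7.94, 12.5 and 149 CPM, against 1.37, 7.17 and 22.3 CPM in Q20, and its log2 fold change was 1.92 ± 0.74 (adjusted p = 0.525). In the same comparison 5 members had an unadjusted p under 0.05 (Fos, Fosb, Egr1, Nr4a1 and Btg2), against 6.76% of all genes, and 0.0127% of all genes were called. Without the libraries with a burst Egr1 was at 0.94, Fos at 0.77 and Fosb at 2.17 in Q80 against Q20, and again none was called. Those libraries were picked by the members' own levels, so a lower value of Egr1 without them follows from that choice. In Q111, with 1.11% of all genes called, Junb was the 1 member with an unadjusted p under 0.05, at 0.77 ± 0.36 (adjusted p = 0.351), against 12.4% of all genes. In Q140, with 0.00637% of all genes called, no member had an unadjusted p under 0.05. Q20 did not differ from WT by the test in any member at 10 months, with no unadjusted p under 0.05 and 0.0127% of all genes called. DESeq2 called 0 members in these 4 comparisons too.

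At 6 months the members lay on the lower side in Q175, without a call. Junb was at 6.06, 10.6 and 28.3 CPM in Q175 livers, against 12.8, 19.8 and 73.4 CPM in Q20 livers, and Btg2 at 3.87, 7.32 and 13.4 CPM in Q175, against 9.16, 10.6 and 31.4 CPM in Q20. Ranges overlapped in both. The log2 fold changes were -1.05 ± 0.37 for Junb (adjusted p = 0.0591), -0.85 ± 0.30 for Btg2 (0.0573) and -1.44 ± 0.55 for Fosb (0.0776). All 10 values were negative, with a median of -0.83, against a median of -0.008 over all genes. The members varied together within groups, so a shared sign, here or in another comparison, is not 10 separate results. The members' mean log2 deviation from their 6-month medians had a group median of -0.490 in Q175, -0.012 in WT and 0.183 in Q20. Of the 10 members, 5 had an unadjusted p under 0.05, against 26.4% of all genes, with 10.9% of all genes called. DESeq2 called 3 members lower (Btg2, Fosb and Junb), against 6.59% of all genes, and limma on log2 FPKM 0. By edgeR 3 members were called lower without Q175 F1 (Junb, Atf3 and Btg2), against 6.97% of all genes, and 2 without Q20 F2 (Btg2 and Junb), against 6.06%. Without Q175 F4 the 1 member called was Btg2, against 6.08% of all genes called lower, and without Q175 M4 it was Junb, against 3.7%. Of 37 other early response genes 8 were lower in Q175, with Klf4, a pluripotency and stress-response factor, at -1.24 ± 0.25 (adjusted p = 0.00214), Rhob at -0.48, Klf6 at -0.60 and Ier5 at -0.54. Of the 20 upstream factors and kinases 2 were higher, Rps6ka1 and Map2k1, and Rps6ka3 was lower. Of the cell type marker lists, only the neutrophil and Kupffer cell sums are given here, and both had lower medians in Q175. The 6 neutrophil markers summed to 2.52, 4.50 and 7.55 CPM in Q175, against 4.15, 9.50 and 14.7 CPM in Q20. The 8 Kupffer cell markers summed to 77.6, 311 and 394 CPM in Q175, against 251, 403 and 828 CPM in Q20. Ranges overlapped in both sums, which were not tested for a difference. The part of these markers in the members' levels was not tested.

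The slope at 6 months called no member, with 5 at an unadjusted p under 0.05, against 21.6% of all genes, and 6.27% of all genes called, and the 2 smallest p-values were those of Atf3 at -0.53 ± 0.20 (adjusted p = 0.101) and Btg2 at -0.47 ± 0.18 (0.102). Among the other early response genes 3 of 37 had a negative slope, Klf4 at -0.68, Klf2 at -0.31 and Rhob at -0.22. No member was called in Q80, Q92, Q111 or Q140 against Q20 at 6 months, where 9.3%, 18%, 1.24% and 5.98% of all genes were called and 1, 2, 3 and 1 members had an unadjusted p under 0.05, against 25.6%, 32.3%, 17.8% and 21.4% of all genes. DESeq2 called 0 members in these 5 comparisons.

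Q20 livers and WT livers at 6 months differed in 32.2% of all genes and in 0 of the 10 members, of which Nr4a1 had an unadjusted p under 0.05 at 1.02 ± 0.51 (adjusted p = 0.117), against 42% of all genes. Nr4a1 was at 1.91, 2.49 and 17.2 CPM in Q20, against 1.32, 1.97 and 4.23 CPM in WT. DESeq2 also called 0. All 10 log2 fold changes were positive, with a median of 0.47, against a median of 0.020 over all genes. In this comparison 7 of 37 other early response genes were higher in Q20, among them Rhob at 0.42, Ier5l at 1.05, Fosl1 at 1.04 and Arc at 1.14. Names of the 6-month knock-in libraries have another form than those of the 6-month WT libraries, so the allele and the library set cannot be told apart here.

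At 2 months no member was called for genotype. Q175 against Q20 had 1 member with an unadjusted p under 0.05, Jun at 0.65 ± 0.27 (adjusted p = 0.248), with 11.7, 15.1 and 25.6 CPM in Q175 livers, against 6.90, 9.48 and 14.5 CPM in Q20 livers. The ranges of Jun overlapped, and 0.31% of all genes were called, with 14.3% at an unadjusted p under 0.05. The slope also had only Jun below 0.05, at 0.37 ± 0.14 per 100 repeats (adjusted p = 0.197), with 0.272% of all genes called and 15.6% below 0.05 unadjusted. Q80 against Q20 called 0.0991% of all genes, and Q92, Q111 and Q140 against Q20 and Q20 against WT called 0% each, with 0 members at an unadjusted p under 0.05. DESeq2 called 0 members in all 7 comparisons.

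Slopes differed between ages in some members. The slope at 10 months exceeded that at 2 months for Fosb by 2.68 ± 0.69 per 100 repeats (adjusted p = 0.0262) and for Atf3 by 1.70 ± 0.38 (adjusted p = 0.00557), against 0.774% of all genes called higher. It exceeded that at 6 months for Fosb by 3.18 ± 0.59 (adjusted p = 0.000138), for Atf3 by 2.25 ± 0.37 (1.1e-05), for Nr4a1 by 2.34 ± 0.57 (0.00556) and for Ier3 by 0.63 ± 0.19 (0.0374), against 3.7%. Without Q175 F3 none of these differences was called. In the comparison of 10 with 6 months the values without it were 0.80 ± 0.25 for Atf3 (adjusted p = 0.0534), 0.53 for Fosb, 0.73 for Nr4a1 and 0.43 for Ier3. In the same comparison 6 of 37 other early response genes were called higher, the 4 with the smallest p being Klf4 (1.12 ± 0.22), Klf2 (0.67 ± 0.13), Nr4a3 (2.51 ± 0.52) and Nr4a2 (1.12 ± 0.31). Without Q175 F3 Klf4 stood at 0.90 ± 0.21 (adjusted p = 0.00446) and Klf2 at 0.61 ± 0.13 (adjusted p = 0.00238), while Nr4a3 (0.51, adjusted p = 0.622) and Nr4a2 (0.51, adjusted p = 0.368) were not called. Between 6 and 2 months no member's slope differed by the test, with 1 unadjusted p under 0.05, against 12.2% of all genes, and 0.204% of all genes called.

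The slope did not differ by sex in any member at the threshold. At 10 months 6 of 10 had an unadjusted p under 0.05 with the larger slope in females, led by Btg2 at 2.53 ± 0.62 (adjusted p = 0.0561) and Fosb at 4.39 ± 1.23 (0.0872), with 0.173% of all genes called and 15.6% at an unadjusted p under 0.05. Without Q175 F3, 2 of 10 had an unadjusted p under 0.05, against 15.5% of all genes, with Btg2 at 1.64 ± 0.57 (adjusted p = 0.163) and Atf3 at 0.71 ± 0.34 (0.300), and Fosb was at 0.53 ± 0.74 (0.773). At 2 and 6 months 0 members had an unadjusted p under 0.05, with 0% and 0.226% of all genes called.

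Sex gave the steadiest differences among the members, in Ier3 and Atf3. At 2 months Ier3 was at 0.662, 1.38 and 2.71 CPM in females, against 0.403, 0.622 and 1.15 CPM in males, a log2 fold change of 1.23 ± 0.12 (adjusted p = 2.97e-12). At 6 months it was at 0.793, 1.60 and 3.17 CPM in females, against 0.364, 0.730 and 1.33 CPM in males (1.18 ± 0.13, adjusted p = 1.74e-11). At 10 months it was at 1.012, 1.79 and 6.19 CPM in females, against 0.392, 0.733 and 1.48 CPM in males (1.28 ± 0.13, adjusted p = 3.27e-12). The female median of Ier3 was above the male median in 21 of 21 groups, and in 11 of them every female was above every male. Atf3 was higher in females by 1.19 ± 0.16 at 2 months (adjusted p = 1.08e-08), by 1.14 ± 0.18 at 6 months (4.76e-07) and by 1.74 ± 0.33 at 10 months (1.27e-05), the last being 1.21 ± 0.16 without Q175 F3. Its female median was higher in 19 of 21 groups, the exceptions being Q140 at 6 months and Q80 at 10 months.

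Nr4a1 was higher in females at 2 months (1.24 ± 0.38, adjusted p = 0.00462) and 6 months (0.68 ± 0.28, adjusted p = 0.0299), and Egr1 (0.84 ± 0.29, adjusted p = 0.0102) and Btg2 (0.58 ± 0.12, adjusted p = 7.22e-05) at 2 months. That makes 5 members higher at 2 months, against 29.8% of all genes, 3 at 6 months, against 31.4%, and 3 at 10 months, against 30%. The third at 10 months was Fosb at 1.23 ± 0.50 (adjusted p = 0.0328), which stood at -0.04 without Q175 F3. At 2 months single females stood high in Nr4a1, at 53.1 CPM in WT F4 and 24.9 CPM in Q20 F1, and its median was higher in males in Q80 and Q111. Egr1 was at 104 CPM in Q20 F2, against 43.4 CPM in the next highest library of that age, and its median was higher in males in Q80 and Q92. In the other genotypes at 2 months the female median of both genes was higher. Junb was lower in females at 10 months, at 5.29, 9.80 and 40.8 CPM, against 5.76, 15.4 and 52.1 CPM in males (-0.52 ± 0.20, adjusted p = 0.0207), with 27.2% of all genes called lower. At 2 months, 1 Q80 library labelled male (M5) has no Y-linked expression, and without it Ier3 was at 1.25 and Atf3 at 1.22. Of 37 other early response genes, 17 were higher and 2 lower in females at 2 months, 16 and 3 at 6 months, and 13 and 4 at 10 months. Among them Dusp6, which encodes an ERK phosphatase, was higher at each age (0.79, 0.75 and 0.83), and Sik1, a cAMP-induced kinase gene, was at 1.09 at 2 months. Of the 20 upstream factors and kinases, 3 were higher and 6 lower in females at 2 months, 4 and 8 at 6 months, and 3 and 9 at 10 months.

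**Figure D4:**
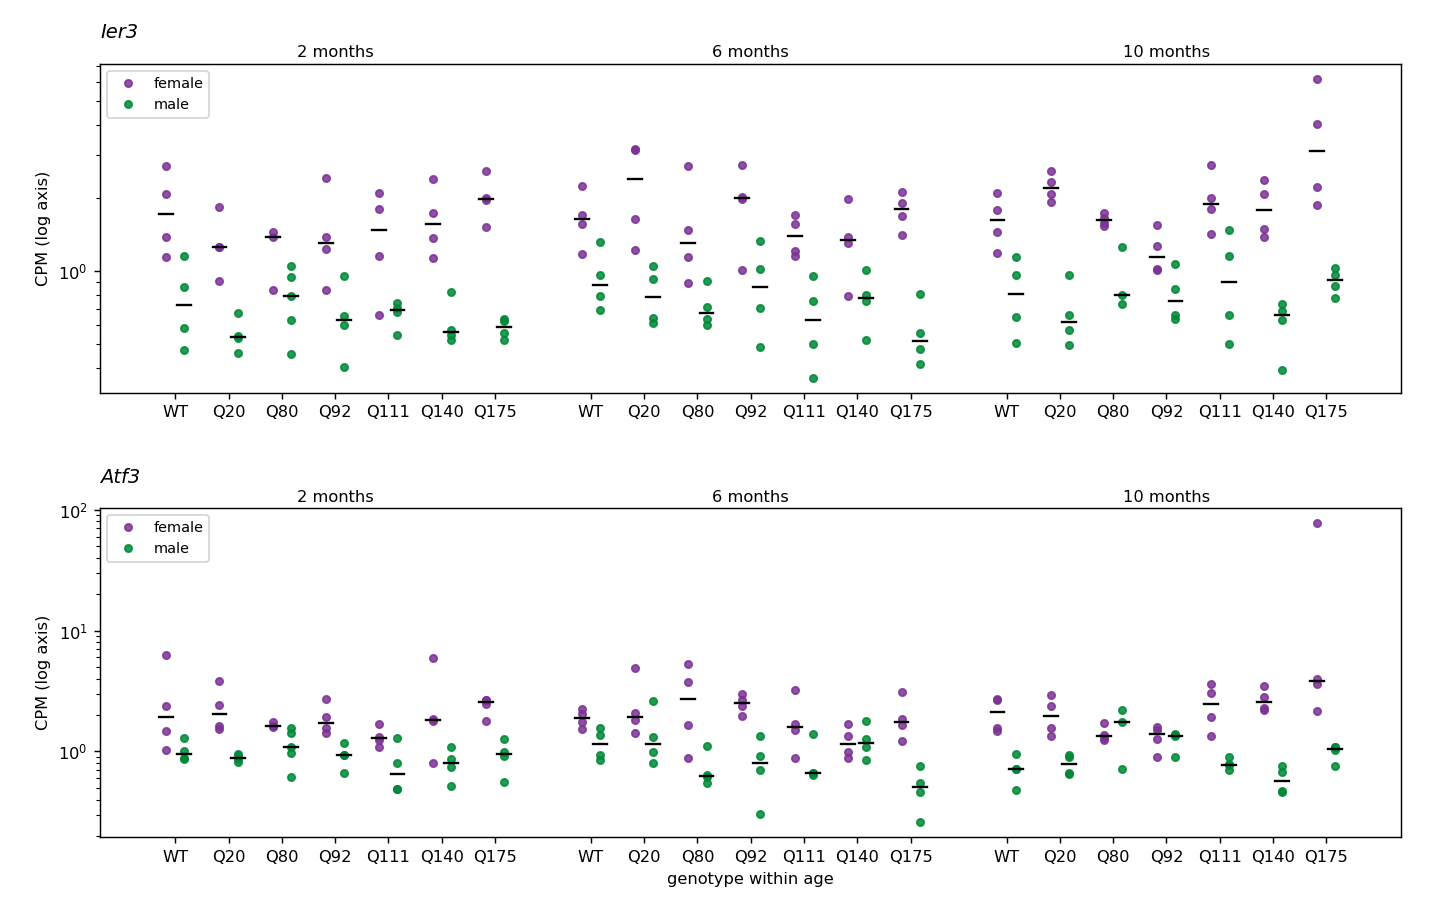
CPM (log axes) of Ier3 (top) and Atf3 (bottom) in every library by genotype within age, with females in purple on the left and males in green on the right of each pair and a bar at each median. The female median of Ier3 is above the male median in all 21 groups, and that of Atf3 in 19 of 21, with Q175 F3 as the single point at 77.7 CPM.

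Age was compared in the knock-in lines. At 6 months Junb was at 6.06, 18.5 and 73.4 CPM, against 3.91, 13.5 and 33.2 CPM at 2 months (0.60 ± 0.15, adjusted p = 0.000421), and Ier2 (0.35 ± 0.09, adjusted p = 0.000344) and Egr1 (0.72 ± 0.28, adjusted p = 0.0244) were higher too, with 27.7% of all genes called higher. At 10 months Junb (-0.49 ± 0.15) and Ier2 (-0.33 ± 0.09) were lower than at 6 months, with 25.6% of all genes called lower. Fosb (0.83 ± 0.30) and Atf3 (0.54 ± 0.21) were called higher at 10 than at 6 months, with 28.8% of all genes called higher. Without Q175 F3 these last 2 stood at -0.08 and 0.04 and were not called, and Jun (-0.29), Junb (-0.53) and Ier2 (-0.37) were lower, with 25.5% of all genes called lower. At 10 against 2 months Fosb (1.36), Atf3 (0.63) and Ier3 (0.38 ± 0.10) were higher, with 13.4% of all genes called higher, and without Q175 F3 only Ier3 passed (0.32 ± 0.10, adjusted p = 0.0118, against 13%). In the WT livers alone no member was called between ages. The 6-month knock-in libraries have a name form found at neither of the other ages. The libraries of 2 and 10 months share the same 2 forms, but the sample numbers in their names lie in separate blocks. Age and library set therefore cannot be told apart in any of these comparisons, that of 10 with 2 months included.

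Members also moved together from library to library within a group. Over all libraries, each as its deviation from the mean of its group and sex, the Spearman correlation of Fos with Junb was 0.692, the highest of the 45 pairs, followed by Junb with Ier2 (0.656) and Junb with Btg2 (0.636). Fosb with Ier2 (0.064) and Junb with Atf3 (0.078) were the lowest. Atf3 went most closely with Nr4a1 (0.558), and Fosb, whose counts are sparse, with Nr4a1 (0.360). Against the mean of the other 9 members the values were 0.742 for Fos, 0.715 for Btg2, 0.697 for Ier2, 0.666 for Junb, 0.636 for Jun, 0.608 for Egr1, 0.601 for Nr4a1, 0.521 for Ier3, 0.356 for Atf3 and 0.260 for Fosb. These points share their library's depth and dissection, and the values are a description.

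**Figure D5:**
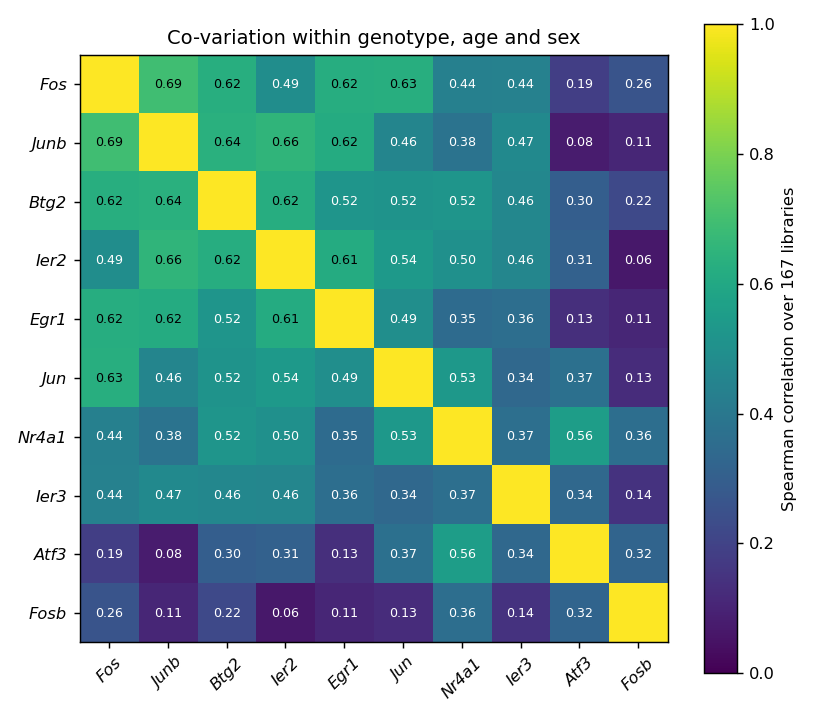
Spearman correlation between each pair of members over all libraries, each level taken as its deviation from the mean of its genotype, age and sex. Fos, Junb, Btg2, Ier2, Egr1 and Jun form a block of higher values at the upper left, from 0.46 to 0.69, and Atf3 and Fosb are paler in their relation to it apart from Nr4a1 with Atf3 at 0.56.

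Outside the members, the 10 genes of 11992 whose pattern was most like the members' mean were Klf6 (0.576), Ppp1r15a (0.567), Fosl2 (0.553), Mnt (0.540), Mafk (0.531), Csrnp1 (0.528), Zfp36l1 (0.519), Mxd1 (0.517), Hbegf (0.515) and Pnrc1 (0.513), by the same measure over the same libraries. Klf6 is a zinc finger factor, Ppp1r15a encodes the stress-induced regulatory subunit of the phosphatase that acts on eIF2alpha, and Fosl2 is a further AP-1 subunit. Without the libraries with a burst, 8 of these 10 were again among the 10 most alike.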

How the data were processed

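Liver polyA RNA was sequenced on Illumina HiSeq instruments from flash frozen tissue, per the labels' protocols, and base calling used CASAVA 1.8.2, per the submitters' processing notes. Which aligner, quantifier, build and annotation were used is not given in the sources used here. Expected counts and FPKM are the authors' values: they deposited 1 table of expected counts and 1 of FPKM, each with 39179 Ensembl IDs and 1 column per library, all assigned from their names, with 0 columns unused and 0 identical pairs. In the deposited expected counts 14.1% of values were not whole and were rounded. GENCODE M21 (GRCm38) gave a symbol to 37607 IDs and none to 1572.

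The count test was edgeR 4.0.16 under R 4.3.3, using TMM, filterByExpr on genotype and sex, glmQLFit and glmQLFTest. P-values were adjusted by Benjamini-Hochberg over every gene in the fit, and 0.05 was the threshold. Each age was fitted with its 7 genotypes and sex, and slopes (per 100 repeats, from the line names), ages and interactions in the 6 knock-in lines. The SE is the size of the log2 fold change over the square root of F. Levels are TMM CPM over all libraries, with 0.1 CPM added before logs and ratios, and are given as lowest, median and highest where 3 values stand together. DESeq2 1.42.0, limma 3.58.1 on log2 of the deposited FPKM plus 0.1, other normalization and filters, single sexes, a replicate block and left-out libraries were the alternatives. Of these models, a genotype comparison by edgeR within a single age was first tested on simulated data. Python 3.11.15 with pandas 2.3.3, numpy 2.4.6, scipy 1.17.1 and matplotlib 3.10.9 made the descriptions and figures. The labels do not state that replicates are separate animals, so the p-values measure the spread between these libraries.

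The members and gene lists were chosen with earlier results of these data known. By the rule for names, the text names every member, up to 4 called genes of each other list with the smallest p, or else up to 2, and the 10 genes most alike. In the libraries with a burst, Nr4a2, Nr4a3, Egr2, Klf4 and Gadd45g were singled out after their values were seen, as were the libraries whose names hold no index.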

Additional observations from a re-analysis of the deposited data

Results flagged for a closer look

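Within 210 combinations of a member and a group, 28 (13.3%) held a library whose gap to its nearest neighbour was above Dixon's critical value. The nominal rate of about 1 in 20 holds for independent, normally distributed values, while the members varied together. The share over all genes was not computed, so nothing particular to the members is drawn from this count. Of these, 25 were high and 3 low. Q175 F3 at 10 months held 6 of them, Fosb at 14.6, Jun at 94.1, Atf3 at 77.7, Nr4a1 at 114, Ier2 at 31.4 and Btg2 at 109 CPM. Q80 M3 at 10 months held 4, Fos at 15.9, Jun at 35.1, Ier2 at 23.2 and Btg2 at 59.2 CPM. The other high values at 10 months were Btg2 at 41.0 CPM in Q92 M2, Egr1 at 92.7 CPM in WT M3, and Fosb at 0.493 and Nr4a1 at 13.6 CPM in Q111 F4.

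At 6 months the high values were Fosb at 1.76 CPM in Q92 M2, Egr1 at 91.1 CPM in WT M3, Nr4a1 at 17.2 CPM in Q20 F1 and Btg2 at 33.3 CPM in Q80 F1. At 2 months they were Jun at 26.3 and Nr4a1 at 7.61 CPM in Q92 F3, Jun at 25.6 CPM in Q175 F4, Nr4a1 at 24.9 CPM in Q20 F1, Nr4a1 at 15.6 CPM in Q140 F4, and Ier2 at 21.4 and Btg2 at 23.9 CPM in WT F4. The 3 low values were Fos at 0.233 CPM in Q20 M3 and Jun at 3.78 CPM in Q140 M2 at 10 months, and Junb at 4.10 CPM in Q20 F4 at 2 months.

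The slope on repeat length differed between ages for 4 members by the interaction test. Per 100 repeats it was higher at 10 than at 2 months by 2.68 for Fosb and 1.70 for Atf3, and higher at 10 than at 6 months by 3.18 for Fosb, 2.25 for Atf3, 2.34 for Nr4a1 and 0.63 for Ier3. None of these 6 differences was called without Q175 F3.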

How the results depend on the processing

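Results that rest on Q175 F3 changed most. Of the 2 members called for the slope at 10 months, DESeq2 and the rank of the repeat length called 1, and 0 were called by limma on log2 FPKM, an older form of the quasi-likelihood fit, the males alone, without the Q175 libraries, without Q175 F3 or without both libraries with a burst. Atf3 then had a slope of -0.14 in males, and Fosb -0.40 in males, -0.16 without Q175 F3 and -0.16 without both. Of the 3 members called for Q175 against Q20 at 10 months, 0 were called in the females, in the males, by limma with 0.1 or 1 added, in a fit of only these groups, without Q175 F3 and F4 or without the libraries with a burst, and leaving out each library in turn gave 0 to 4. For Q92 against Q20 leaving out each library gave 0 to 2 calls, and 0 were called without Q92 F1 and M2 or without the libraries that have no index. At 6 months, where Q175 against Q20 called 0, DESeq2 called 3, the males 2, a fit of only these groups 2, and leaving out each library 0 to 3.

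With the replicate number as a replicate block the slope at 10 months called 0 members (Fosb 1.70, Atf3 1.10), Q175 against Q20 called 1 at 10 months (Fosb 3.23, adjusted p = 0.0287) and 1 at 6 months. Libraries of the same number in different groups had a mean r of -0.012, 0.088 and 0.004 at 2, 6 and 10 months. Pairs of the same sex with different numbers had 0.004, -0.029 and -0.001. The labels do not say whether the numbers stand for a pairing, and these means cannot decide it.

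Sex and age: Fosb at 10 months was -0.039 in females against males without Q175 F3. Between 10 and 2 months limma called 1 member, the wild type 0 and the set without Q175 F3 1, against 3. Between 10 and 6 months limma called 2 and the wild type 0, against 4, and between 6 and 2 months the wild type called 0, against 3. In the wild type alone the difference between 10 and 2 months was -0.27 for Fosb, -0.067 for Ier3 and -0.41 for Atf3, that between 10 and 6 months -0.01 for Fosb and -0.20 for Atf3, and that between 6 and 2 months -0.15 for Ier2. Fosb between 10 and 6 months was -0.08 without Q175 F3. The 2 and 4 slope differences with age fell to 0 calls without Q175 F3. The 2 libraries with a burst became 13 at 2 times and 1 at 8 times the median, 4 with at least 3 members and 1 with at least 8. The causes were not tested. The other settings left the counts within 1.5 times.

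Some alternatives were chosen after the data were seen, among them leaving out Q175 F3, the libraries with a burst, Q92 F1 and M2, and the libraries without an index. Fosb had a median of 0.180 CPM, so its values rest on few counts and limit what this depth can show.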

Other observations

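Libraries below the rule for a burst differed in which members were high. In Q140 M1 at 6 months Egr1 stood at 255 CPM and Ier2 at 41.9 CPM, the second highest and the highest of the series. In Q80 F1 at 6 months Junb was at 72.2 and Jun at 37.9 CPM beside Fos at 12.4 CPM. In Q80 F2 at 6 months Nr4a1 was at 25.9 CPM, and in Q80 M1 at 10 months Fosb was at 1.77 CPM, the second highest of the series.

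By the mean log2 deviation of the 10 members from their age medians, the libraries stood in the order Q175 F3 (3.61) and Q80 M3 (1.84) at 10 months, Q80 F1 at 6 months (1.74), WT F4 at 2 months (1.66), Q111 F4 (1.54) and Q92 M2 (1.43) at 10 months, Q20 F1 at 6 months (1.299) and Q140 F4 at 2 months (1.29).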
